A study of Homo sapiens with 25 samples.

Results

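The net RNA state of doubly treated cells was taken from RNA libraries of A549, a lung carcinoma cell line of human origin, in which TRRAP carried a mini auxin-inducible degron (mAID). The comparison took the 3 RNA libraries titled IAA_CHK1i, from cells given 5-Ph-IAA and the CHK1 inhibitor prexasertib, against the 3 libraries titled DMSO, with the replicate number as a block. These are 6 of the 25 samples of the series and 6 of its 12 RNA libraries. The other 6 RNA libraries, 3 with prexasertib alone and 3 with 5-Ph-IAA alone, were used to split each net change into the effect of either drug, and the chromatin samples were not analysed here.

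All cells were blocked for 20 h in 2 mM thymidine and sampled 4 h after release, in what the series describes as S phase. 5-Ph-IAA, the auxin analogue that sends a tagged protein to the proteasome, was given at 1 µM for 6 h. Prexasertib was given for 3 h, and no dose is used here because the labels of the RNA and chromatin samples differ in its unit. The RNA labels list a WT genotype although their culture notes speak of mAID TRRAP cells, they do not say whether the line is 1 clone, and no untagged cells were given 5-Ph-IAA in the RNA libraries. The effect of 5-Ph-IAA itself and the effect of losing TRRAP therefore cannot be told apart in these samples.

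TRRAP is a large scaffold protein shared by the SAGA and TIP60 complexes, which acetylate histones, and is recruited by activators such as MYC and E2F1. Genes needed for mitosis are held low early in the cell cycle and are switched on late by MMB, the complex of B-MYB with the MuvB core, and by FOXM1, both of which act at an element named the cell-cycle genes homology region (CHR). Genes of DNA replication are driven earlier by E2F factors. CHK1 restrains CDK activity while DNA is copied, and its inhibition lets S-phase cells start the mitotic programme early. The study's title names the link between TRRAP, MMB-dependent mitotic transcription and sensitivity to CHK1 inhibition.

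The promoters of 4 genes on which the results turn are shown first. Capitals mark elements common in mitotic, replication or early-response genes, chosen separately for each gene. The sequences are from RefSeq (GRCh38.p14), each holding the 250 bases before the annotated start and the 50 bases from it on, all on the plus strand. KIF20A (chr5:138178862-138179161) and CCNB1 (chr5:69166900-69167199) stand for mitotic genes whose opposing drug effects ended near the DMSO level, and capitals mark their CCAAT boxes and CHR. CDC6 (chr17:40287629-40287928) stands for replication genes lowered by both drugs, and capitals mark its E2F site. EGR1 (chr5:138465229-138465528) had the largest net increase among the named genes, and capitals mark its CArG boxes, the element bound by serum response factor. Motifs not chosen for a gene were left in lower case. CDC6 also holds CCAAT boxes, and EGR1 holds the letters TTCAAA, a CHR read on the other strand. The marked motifs therefore do not by themselves tell these promoters apart.
KIF20A: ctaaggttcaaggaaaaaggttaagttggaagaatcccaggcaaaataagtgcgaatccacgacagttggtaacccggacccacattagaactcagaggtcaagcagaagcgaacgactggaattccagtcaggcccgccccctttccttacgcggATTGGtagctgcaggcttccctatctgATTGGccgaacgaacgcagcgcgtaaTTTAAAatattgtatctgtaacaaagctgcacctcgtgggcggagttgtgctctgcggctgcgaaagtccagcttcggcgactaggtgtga
CCNB1: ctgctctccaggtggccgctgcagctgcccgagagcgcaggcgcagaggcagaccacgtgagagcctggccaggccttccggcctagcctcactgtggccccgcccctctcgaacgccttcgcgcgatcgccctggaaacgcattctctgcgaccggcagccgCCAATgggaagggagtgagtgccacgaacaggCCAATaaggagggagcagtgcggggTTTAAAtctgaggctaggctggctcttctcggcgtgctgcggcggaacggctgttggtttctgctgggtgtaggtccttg
CDC6: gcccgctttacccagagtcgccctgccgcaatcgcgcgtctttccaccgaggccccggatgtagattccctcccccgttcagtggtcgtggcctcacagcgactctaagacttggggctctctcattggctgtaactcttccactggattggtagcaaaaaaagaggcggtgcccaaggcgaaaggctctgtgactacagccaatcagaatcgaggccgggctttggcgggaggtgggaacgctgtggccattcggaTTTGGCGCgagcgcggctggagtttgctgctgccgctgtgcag
EGR1: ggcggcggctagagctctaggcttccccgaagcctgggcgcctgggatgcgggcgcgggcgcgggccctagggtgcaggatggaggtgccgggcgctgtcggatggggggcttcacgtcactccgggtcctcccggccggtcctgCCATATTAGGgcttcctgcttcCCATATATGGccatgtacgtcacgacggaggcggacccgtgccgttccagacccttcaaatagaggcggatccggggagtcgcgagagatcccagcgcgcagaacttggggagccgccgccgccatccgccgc

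KIF20A and CCNB1 each held 2 CCAAT boxes and 1 CHR of the letters TTTAAA downstream of them. The CHR began 41 bases before the start in KIF20A and 30 bases before it in CCNB1. Both strands of the 300-base windows were searched for each motif. The CHR was taken as the letters TTTGAA or as TTCGAA or as TTTAAA. The CCAAT box has the letters of its name, the E2F site was taken as TTTCCCGC or as TTTGGCGC, the E-box as CACGTG, and the CArG box by its name's usual form. Overlapping matches were kept. A CHR was found in 59 of 69 matched promoters of a list of 80 G2/M genes (85.5%) and in 12% of those of 60 E2F and S-phase genes. Of all 27305 promoters 25.3% held a CHR, and 16.9% of those of the genes tested. The G2/M list was drawn up as targets of MMB and FOXM1, which act at the CHR, so its share follows in part from that choice. Among genes raised by prexasertib and lowered by 5-Ph-IAA, in the classes defined below, the share was 19.4% for cancelled genes. It was 38% for those whose net change was called lower. The E2F site was found in 48% of the matched E2F and S-phase promoters, in 2.31% of all promoters and in 3.61% of those of the genes tested. The E-box was found in 47.7% of matched promoters of ribosome biogenesis and MYC-linked growth genes. It was found in 7.43% of all promoters and in 9.9% of those of the genes tested. These lists were named for E2F and MYC, so their shares too may follow in part from that choice. These matches describe letters in a window and not binding.

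Total counts per library were between 10830048 and 17789482, and 14658 genes passed the filter on low counts. The libraries numbered 3 stood apart from those numbered 1 and 2 in all 4 groups, and for both-drug and DMSO libraries of the same number the deviations from the group means correlated at 0.238 to 0.601 across genes. All values below therefore come from the fit with the replicate block. Results without it are given beside some counts and calls, and a count given alone may also have changed. The epithelial keratin genes KRT7 and KRT18 had means of 2820 and 2020 CPM (counts scaled to a common library size) in both-drug libraries and 3360 and 2310 CPM in DMSO libraries. Of 18 markers of other cell types (blood, fibroblast, endothelial, neural), 7 passed the filter and 0 were called in either direction. DCN was at 0 in every library, and SNAP25, the highest of the 18, had 47.4 CPM in both-drug libraries and 49 CPM in DMSO libraries (group means).

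TRRAP mRNA, which does not report the level of the tagged protein, was measured at 116, 99.7 and 141 CPM in the both-drug libraries. It was at 76.5, 84.2 and 63.6 CPM with prexasertib, at 129, 150 and 119 CPM with 5-Ph-IAA, and at 79.2, 75.9 and 94.5 CPM in DMSO libraries. The both-drug libraries were all above the DMSO libraries. The net log2 fold change was 0.51 ± 0.18 (SE), with an adjusted p of 0.06 by edgeR's quasi-likelihood test, and the gene was called without the block (adjusted p = 0.016) and by DESeq2 with it (adjusted p = 0.015). The 5-Ph-IAA libraries too were above the DMSO libraries, by 0.68 ± 0.18 on the log2 scale (adjusted p = 0.023 by edgeR).

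Of the 14658 genes tested, 3111 were called higher (21.2%) and 3441 lower (23.5%) in doubly treated cells than in DMSO cells, 44.7% in all. A gene was called at a Benjamini-Hochberg adjusted p under 0.05 from edgeR's quasi-likelihood F-test, and every adjusted p below is from that test. All 3 both-drug libraries were above all 3 DMSO libraries for 2894 genes (19.7%) and below them for 3044 genes (20.8%). Most changes were small. Among called genes 609 were more than 2-fold higher and 203 more than 2-fold lower. The root mean square of the net log2 fold change was 0.423, leaving out genes whose log2 CPM averaged under 1. Without the replicate block 1725 genes were called higher and 2077 lower.

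On the log2 scale the net change is the sum of 2 effects, each the mean of a drug's effect in the absence and in the presence of the other drug. In this balanced design these mean effects do not share error through the DMSO group. Prexasertib alone raised 8.37% and lowered 9.77% of the genes tested, 5-Ph-IAA alone raised 19% and lowered 23.6%, and the both-drug libraries differed from those with 5-Ph-IAA alone in 7.8% higher and 7.7% lower genes. The mean prexasertib effect was called for 3970 genes (27.1%) and the mean 5-Ph-IAA effect for 7834 genes (53.4%). A gene was taken as opposed where both were called with opposite signs. It was taken as summed where both were called with 1 sign and the net change was called with it. In either case each drug had to keep its sign in both arms. An opposed gene was taken as cancelled where the 95% interval of its net change lay within 0.3 log2 units of 0, or 1.23-fold.

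By these definitions 1270 genes were opposed (8.66%), 609 of them cancelled (4.15%), and 1103 were summed, 680 lower (4.64%) and 423 higher (2.89%). Of the cancelled genes, 436 were raised by prexasertib and lowered by 5-Ph-IAA, and 173 the other way. Most cancelled effects were small, since both exceeded 0.3 log2 units in 63 of the 436 and 18 of the 173. The net change of 249 opposed genes was called lower and of 60 higher in the direction of 5-Ph-IAA (2.11% together), and that of 83 followed prexasertib (0.566%). The remaining 269 opposed genes had a net change that was neither called nor bounded within 0.3. The genes just inside the bound were SFPQ, UBXN7 and GPSM2, with net changes of -0.2, -0.09 and -0.12, and those just outside were KLF10, CSNK1D and PFKFB3, with -0.18, -0.2 and -0.18. Without the block 119 genes were cancelled and 350 summed, and the cancelled genes of that fit were all among the 609.

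**Figure D1:**
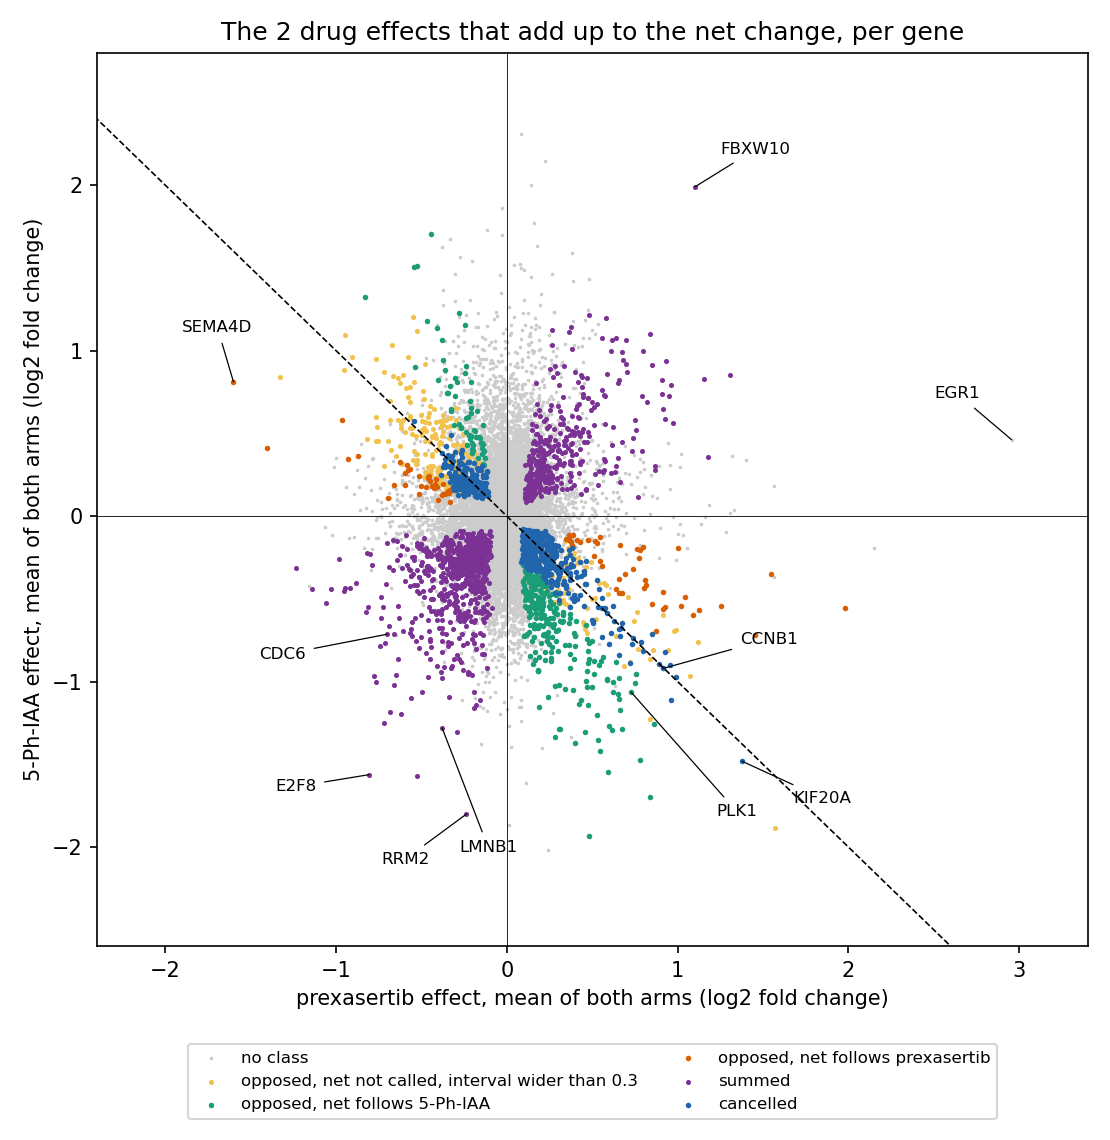
Mean prexasertib effect (x axis, log2 fold change) against mean 5-Ph-IAA effect (y axis, log2 fold change) for tested genes whose log2 CPM averaged 1 or more, coloured by class. Genes on the dashed line have a net change of 0, and KIF20A and CCNB1 lie close to it, E2F8, RRM2, CDC6 and LMNB1 lie in the quadrant of genes lowered by both drugs, and FBXW10 in that of genes raised by both.

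The G2/M genes were the list with the most opposition: 72 of 80 had opposed drug effects, 21 of these were cancelled, 44 stayed lower with 5-Ph-IAA, 4 stayed higher with prexasertib and 3 were undecided. In net terms 59 were called lower and 4 higher than in DMSO cells, and 17 were not called. Over all genes tested 23.5% were called lower and 21.2% higher, 8.66% were opposed and 4.15% cancelled. The median net log2 fold change was -0.36, against 0.01 over all genes tested. The median was 0.52 with prexasertib alone and -0.87 with 5-Ph-IAA alone, both against the same DMSO libraries. The mean log2 CPM of the list was 6.72, 6.75 and 6.76 in both-drug libraries, 7.61, 7.58 and 7.62 with prexasertib, 6.25, 6.22 and 6.24 with 5-Ph-IAA, and 7.13, 7.08 and 7.08 in DMSO libraries. The 4 groups did not overlap, and the both-drug libraries lay between the 5-Ph-IAA and the DMSO libraries. Without the block 48 of the 80 genes were called lower and 3 higher, beside 2077 and 1725 of all 14658 genes.

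KIF20A (chr5:138179112-138187723), a kinesin needed for cytokinesis, was cancelled. It had 201, 197 and 203 CPM in both-drug libraries, 477, 474 and 506 CPM with prexasertib, 67.5, 65 and 68.6 CPM with 5-Ph-IAA, and 214, 211 and 221 CPM in DMSO libraries. Its span overlaps that of CDC23, and PLK1 and FOXM1 overlap ERN2 and ITFG2 in the same way. Both-drug libraries lay slightly under the DMSO libraries while either single drug moved the gene far from them. The net log2 fold change was -0.1 ± 0.05 (adjusted p = 0.088), with 1.17 ± 0.049 for prexasertib and -1.68 ± 0.053 for 5-Ph-IAA. Prexasertib raised KIF20A more on top of 5-Ph-IAA, by 1.58 log2 units.

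CCNB1 (chr5:69167150-69178245), which encodes cyclin B1, the partner of CDK1 at mitotic entry, had 492, 517 and 563 CPM in both-drug libraries and 511, 503 and 564 CPM in DMSO libraries. With prexasertib it had 845, 846 and 877 CPM, and with 5-Ph-IAA 225, 226 and 273 CPM. The both-drug and DMSO ranges overlapped almost entirely, and the net log2 fold change was -0.01 ± 0.05, with a 95% interval of -0.11 to 0.09. CENPE, the kinetochore kinesin, had 93.2, 101 and 56.2 CPM in both-drug libraries and 110, 87.7 and 51.7 CPM in DMSO libraries. In both groups library 3 was the lowest, and the net change was 0.02 ± 0.074. CDC20, the mitotic activator of the anaphase-promoting complex, had 218, 208 and 232 CPM in both-drug libraries and 238, 239 and 255 CPM in DMSO libraries, a net change of -0.15 ± 0.052 that was called (adjusted p = 0.014). It was not called without the block (adjusted p = 0.21).

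Other cancelled G2/M genes had net changes between -0.18 and 0.14. They included the kinase gene AURKA (-0.01), the securin gene PTTG1 (0.03), the depolymerizing kinesin KIF2C (-0.01), UBE2S, an E2 enzyme of the anaphase-promoting complex (0.02), and the AURKA cofactor BORA (-0.01, 95% interval -0.22 to 0.2). NEURL1B, a ubiquitin ligase gene outside the list, was cancelled at similar effect sizes, with 71.1, 61.8 and 50.9 CPM in both-drug libraries and 60.7, 62.9 and 52.8 CPM in DMSO libraries. Its net change was 0.06 ± 0.08, with 0.83 for prexasertib and -1.03 for 5-Ph-IAA.

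Most other G2/M genes stayed below the DMSO level. PLK1, the kinase that drives mitotic entry, had 266, 257 and 276 CPM in both-drug libraries, 456, 448 and 539 CPM with prexasertib, 134, 133 and 150 CPM with 5-Ph-IAA, and 323, 323 and 364 CPM in DMSO libraries. The groups did not overlap, and the net log2 fold change was -0.34 ± 0.05 (adjusted p = 3.2e-07). KIFC1, a spindle kinesin, fell by 0.39 and PIMREG, a mitotic regulator outside the list, fell by 0.85 on the log2 scale. The drugs opposed each other on PIMREG, with 1 for prexasertib and -1.54 for 5-Ph-IAA. Larger net decreases within the list were those of NCAPG of condensin (-0.98), AURKB of the chromosomal passenger complex (-0.97), CCNF (-0.87) and the checkpoint kinase gene BUB1B (-0.72).

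LMNB1 and CENPI were the list's summed genes. LMNB1, which encodes lamin B1 of the nuclear envelope, had 40.5, 40.4 and 34.1 CPM in both-drug libraries, 85.7, 79.6 and 99.6 CPM with prexasertib, 50.7, 48.3 and 42.8 CPM with 5-Ph-IAA, and 131, 113 and 118 CPM in DMSO libraries. Both single-drug groups were below the DMSO libraries and the both-drug group below all of them, at a net log2 fold change of -1.66 ± 0.08 (adjusted p = 7.2e-19). CENPI, a kinetochore gene, had a net change of -1.26. HJURP, the chaperone of the centromeric histone CENPA, had no class, with 0.03 ± 0.051 for prexasertib (adjusted p = 0.71) and a net change of -0.82 ± 0.052.

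The 4 G2/M genes that ended higher than DMSO were DEPDC1, NEK2, CKAP2 and NUF2, each by following prexasertib. DEPDC1, a mitotic spindle regulator, had 110, 121 and 109 CPM in both-drug libraries and 98.6, 92.1 and 76.7 CPM in DMSO libraries. Every both-drug library was above every DMSO library, and the net log2 fold change was 0.35 ± 0.065 (adjusted p = 1.7e-05). The centrosomal kinase gene NEK2 had a net change of 0.32, the microtubule gene CKAP2 0.27 and the kinetochore gene NUF2 0.2. The regulators themselves ended lower or were not called, with MYBL2 (B-MYB) at -0.45 ± 0.056 (adjusted p = 5.1e-09), FOXM1 at -0.36 ± 0.052 (adjusted p = 1.6e-07) and the MuvB subunit gene LIN9 at -0.19 ± 0.13 (adjusted p = 0.23). MYBL2 was not called without the block (adjusted p = 0.061).

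**Figure D2:**
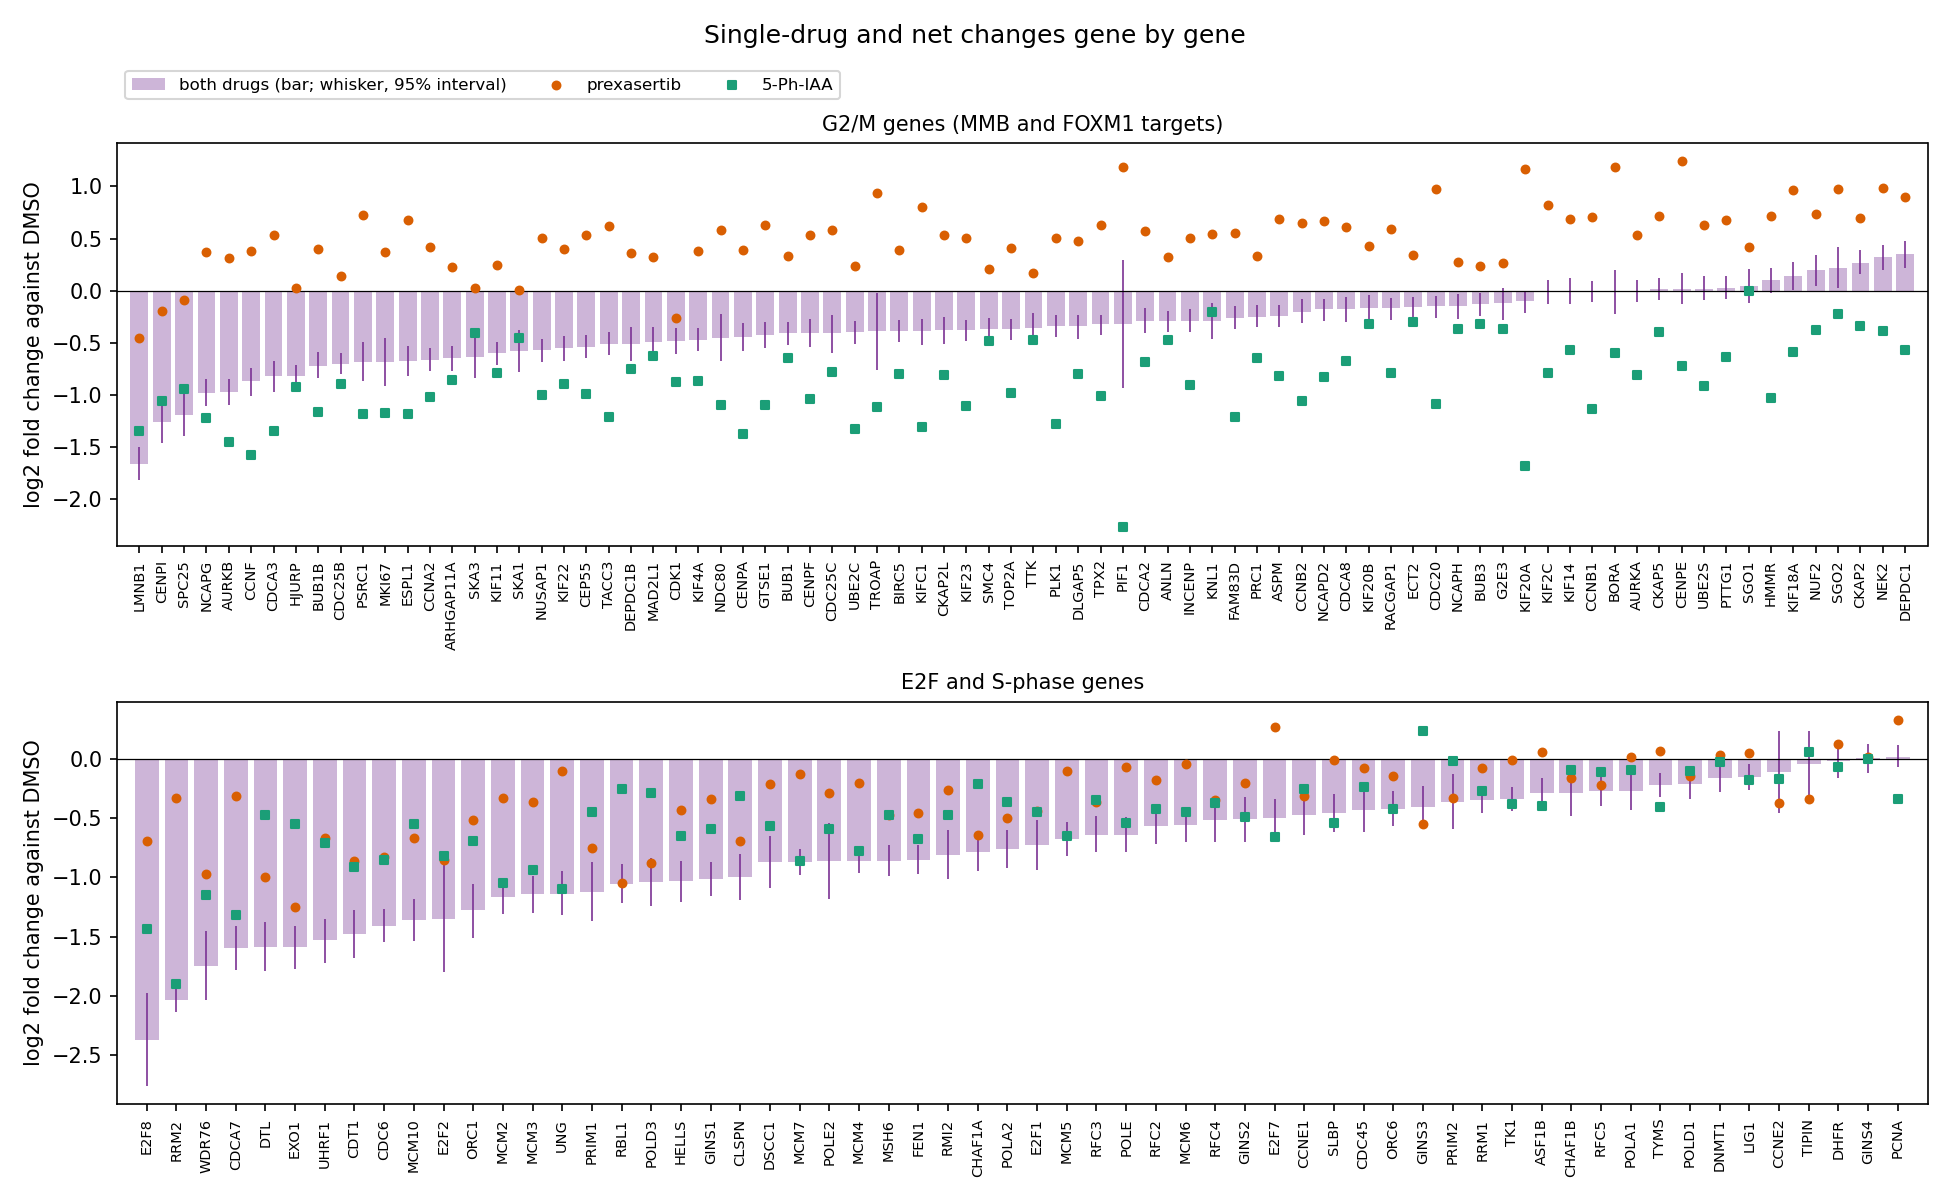
Log2 fold change against DMSO for each gene of the G2/M list (upper panel) and of the E2F and S-phase list (lower panel), with bars for both drugs, whiskers for the 95% interval, circles for prexasertib and squares for 5-Ph-IAA. In the upper panel circles and squares mostly lie on opposite sides of 0, with medians of 0.52 and -0.87, and in the lower panel both mostly lie below 0, with medians of -0.32 and -0.45.

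The E2F and S-phase genes showed the sum rather than the difference of the drug effects. Of 60 genes, 55 were called lower, 0 higher and 5 were not called in doubly treated cells, with a median net log2 fold change of -0.75 against 0.01 over all genes tested. Of all genes tested 23.5% were called lower and 21.2% higher. The summed-lower class held 31 of the 60, and 4 had opposed effects, beside 4.64% and 8.66% of all genes tested. Without the block 45 of the 60 were called lower and 0 higher, beside 2077 and 1725 of all 14658 genes. The list's mean log2 CPM was 5.08, 5.11 and 5.25 in both-drug libraries, 5.52, 5.49 and 5.74 with prexasertib, 5.38, 5.36 and 5.53 with 5-Ph-IAA, and 5.86, 5.82 and 6.1 in DMSO libraries. The both-drug libraries lay below all others.

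CDC6 (chr17:40287879-40304657), a loader of the replicative helicase, had 37.3, 35.5 and 46.9 CPM in both-drug libraries, 59.5, 56.5 and 62 CPM with prexasertib, 56.8, 53.9 and 66.6 CPM with 5-Ph-IAA, and 104, 93.5 and 121 CPM in DMSO libraries. The single drugs gave nearly equal decreases, of -0.83 ± 0.068 and -0.85 ± 0.067, and both together gave -1.41 ± 0.07 (adjusted p = 1.4e-21). UHRF1, which maintains DNA methylation after replication, showed the same form. It had 17.4, 16.9 and 19.9 CPM in both-drug libraries and 48.3, 53.1 and 55.3 CPM in DMSO libraries, with -0.67 for prexasertib, -0.71 for 5-Ph-IAA and -1.53 ± 0.092 for both.

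E2F8 (chr11:19224063-19241655), an E2F family repressor, had the largest net decrease among the named genes. It had 2.47, 2.31 and 2.52 CPM in both-drug libraries, 8.06, 7.63 and 7.88 CPM with prexasertib, 4.38, 5.5 and 3.94 CPM with 5-Ph-IAA, and 12.1, 12.4 and 13.5 CPM in DMSO libraries. The 4 groups were fully separate, and the net log2 fold change was -2.37 ± 0.2 (adjusted p = 5e-15). WDR76 and FAM111B were likewise lowered by both drugs, to net changes of -1.75 ± 0.15 and -1.77 ± 0.15.

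RRM2, the regulatory subunit of ribonucleotide reductase, which makes deoxynucleotides, fell mainly with 5-Ph-IAA. It had 104, 103 and 132 CPM in both-drug libraries, 355, 340 and 405 CPM with prexasertib, 114, 110 and 150 CPM with 5-Ph-IAA, and 447, 418 and 522 CPM in DMSO libraries. The both-drug and 5-Ph-IAA libraries overlapped and were far below the rest, and the net change was -2.04 ± 0.053 (adjusted p = 4.4e-33). EXO1, a nuclease of replication and repair, leaned the other way, with -1.25 for prexasertib, -0.55 for 5-Ph-IAA and -1.59 for both. PCNA, the sliding clamp, was the cancelled member, with 0.33 for prexasertib, -0.34 for 5-Ph-IAA and a net change of 0.02 (95% interval -0.07 to 0.12).

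Genes of DNA repair and checkpoint signalling were lower in 25 of 43 cases and higher in 4, with a median net change of -0.33, and 12 were summed lower. The shares over all genes tested were 23.5% lower, 21.2% higher and 4.64% summed lower. BARD1, the partner of BRCA1, had a net change of -1.18, BRCA1 itself of -0.55, and TOPBP1, an activator of the kinase ATR, of -0.77 ± 0.066.

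CHEK1, which encodes the kinase that prexasertib inhibits, had 24.4, 23.5 and 26 CPM in both-drug libraries, 37.4, 36.3 and 35.5 CPM with prexasertib, 33.6, 30.6 and 29.3 CPM with 5-Ph-IAA, and 38.8, 36.2 and 41.6 CPM in DMSO libraries. Only the both-drug libraries were below every library of each other group, and the net change was -0.66 ± 0.089 (adjusted p = 3.4e-08). BRCA2 was the list's cancelled gene in the rarer orientation. It had 15.8, 14.6 and 19.2 CPM in both-drug libraries, 13.7, 14.5 and 11.4 CPM with prexasertib, 23.3, 21.2 and 20.5 CPM with 5-Ph-IAA, and 15.2, 17.8 and 17.4 CPM in DMSO libraries, for a net change of -0.02 ± 0.12. SLX4, a scaffold of structure-specific nucleases, was summed higher at 0.65 ± 0.11.

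Of the genes of CDK control and the MuvB and pocket proteins, 25 of 37 tested were called lower and 2 higher, with a median net change of -0.41. The shares over all genes tested were 23.5% lower and 21.2% higher. RBL1, which encodes the pocket protein p107, had 24.4, 26.6 and 25.7 CPM in both-drug libraries, 26.3, 24.1 and 26.3 CPM with prexasertib, 43.9, 45.5 and 44 CPM with 5-Ph-IAA, and 54, 53.1 and 52.2 CPM in DMSO libraries. The both-drug libraries overlapped those of prexasertib and were far below the rest, and the net change of -1.06 ± 0.083 was close to that of prexasertib alone, -1.05 ± 0.085. PKMYT1, which phosphorylates CDK1 to hold it inactive, was summed lower at -1.13, and CDK4 and the cyclin gene CCND1 were summed lower at -0.7 and -0.5. The CDK1 phosphatase gene CDC25B fell by 0.7, with -0.89 for 5-Ph-IAA alone. The genes called higher were the CDK inhibitor genes CDKN1C, at 1.19, and CDKN1A, at 0.6.

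The ribosome biogenesis and MYC-linked growth genes were lower in 47 of 51 cases and higher in 0, with a median net change of -0.5. Their medians were 0.03 with prexasertib alone and -0.59 with 5-Ph-IAA alone. Of all genes tested 23.5% were called lower and 21.2% higher. Without the block 36 of the 51 were called lower and 0 higher, beside 2077 and 1725 of all 14658 genes. DKC1, the pseudouridine synthase of box H/ACA particles, had 84.4, 91.3 and 94.1 CPM in both-drug libraries, 183, 167 and 207 CPM with prexasertib, 77.5, 78.5 and 87.2 CPM with 5-Ph-IAA, and 177, 167 and 207 CPM in DMSO libraries. Prexasertib and DMSO libraries had almost the same range, and the net change was -1.03 ± 0.058 (adjusted p = 1.5e-19). MYBBP1A, a nucleolar protein, had a net change of -1.19 ± 0.07, and NOP16 and RRS1, assembly factors of the large ribosomal subunit, had -1.15 and -1.07. MYC itself had 75.9, 70.7 and 75.7 CPM in both-drug libraries, 88.9, 86.1 and 75.4 CPM with prexasertib, 112, 100 and 124 CPM with 5-Ph-IAA, and 77.1, 88.4 and 97 CPM in DMSO libraries. It was below DMSO by -0.24 ± 0.08 (adjusted p = 0.017) with both drugs, and this call was lost without the block (adjusted p = 0.099).

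**Figure D3:**
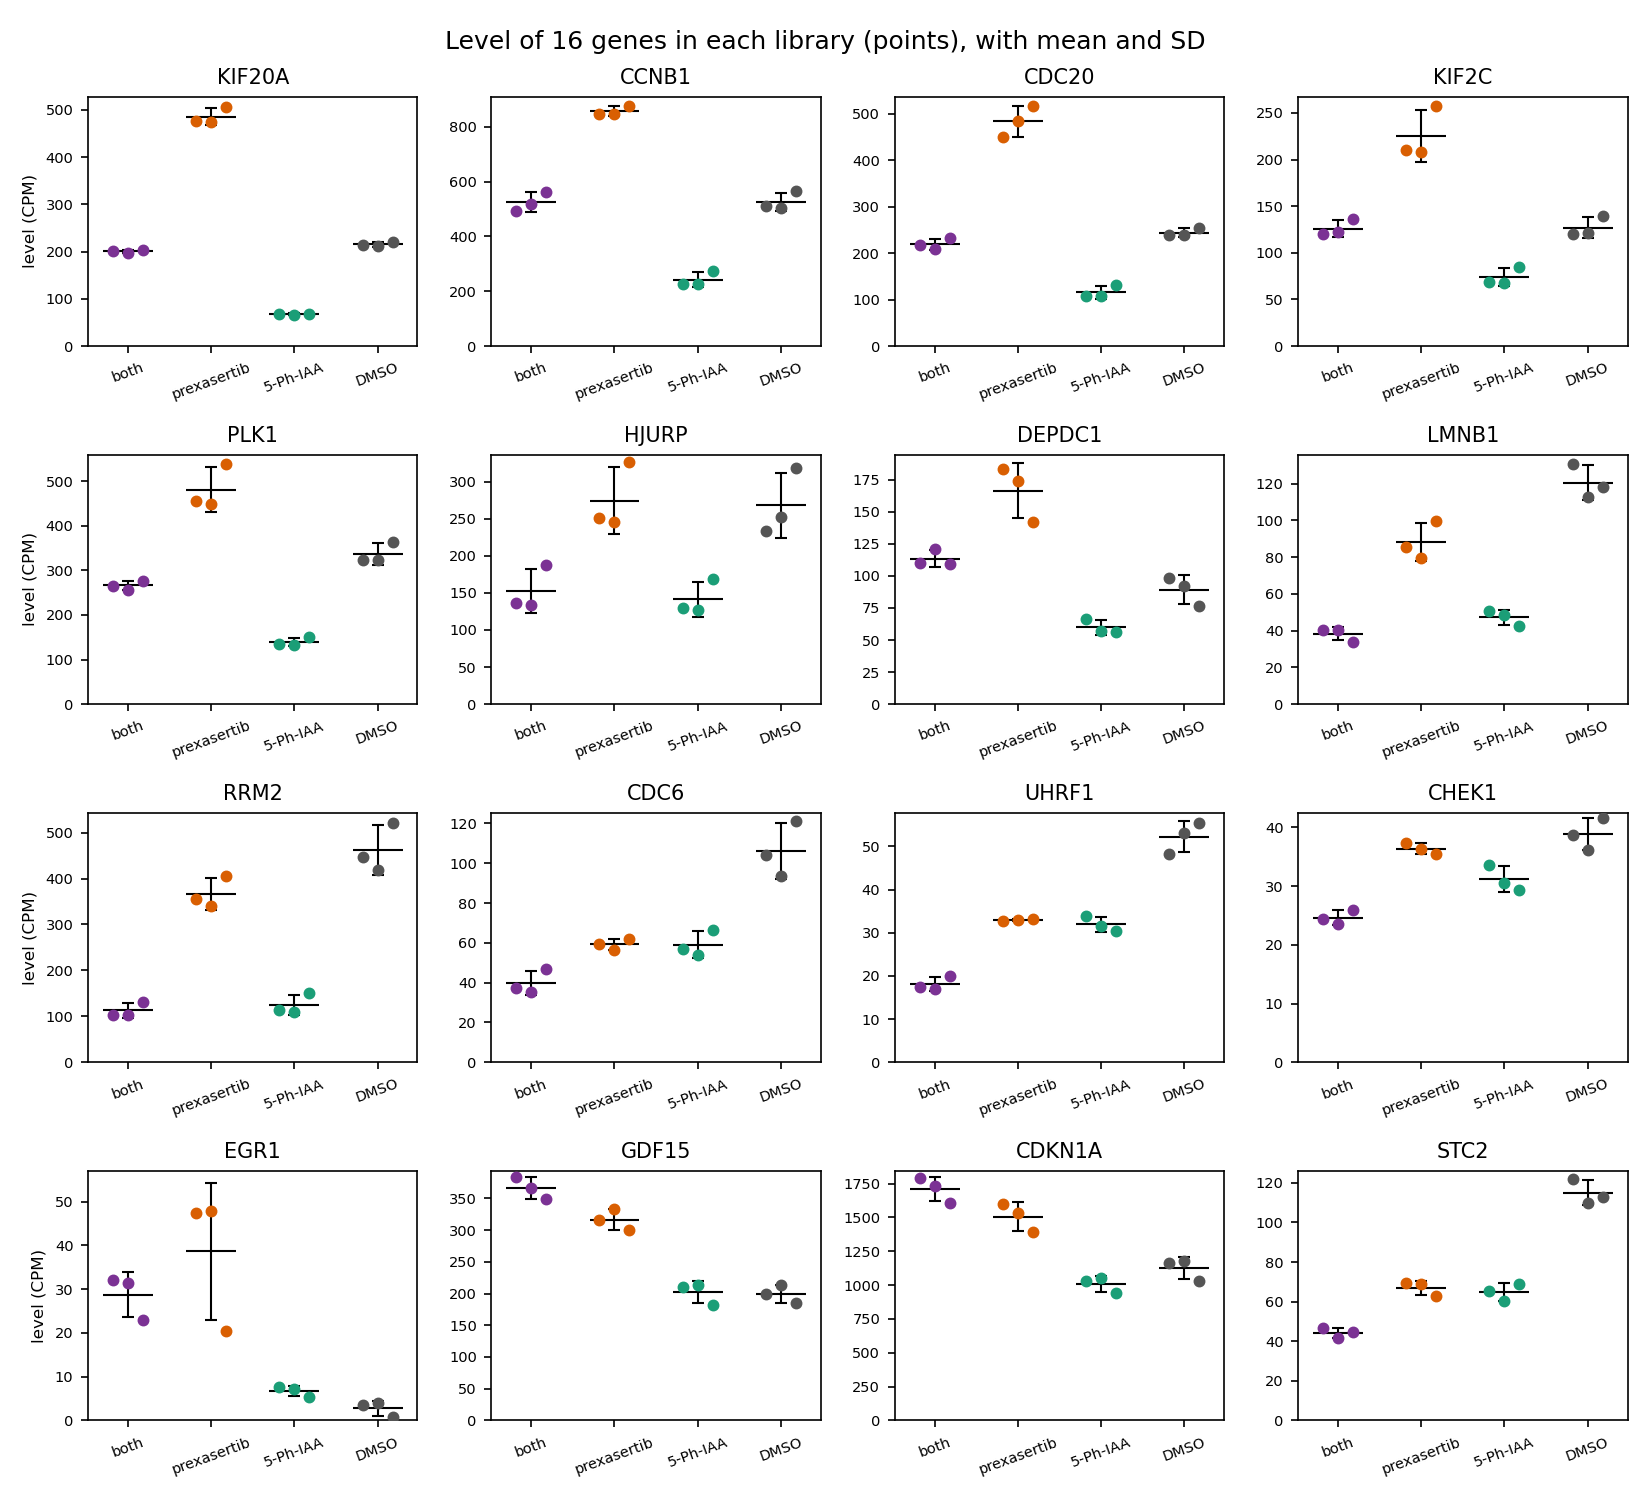
CPM (y axis, from 0) of 16 genes in each library by group (x axis), with points for the 3 libraries of a group, a line for their mean and whiskers for the SD. In the both-drug group CCNB1 lies in the DMSO range and KIF20A just under it, RRM2, CDC6 and LMNB1 are lowest or among the lowest there, and EGR1 and CDKN1A are above the DMSO libraries.

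p53 targets were mostly opposed or carried by prexasertib. Of 35 genes, 21 were called higher, 3 lower and 11 were not called, with a median net change of 0.19. Of all genes tested 21.2% were called higher and 23.5% lower. Without the block 11 of the 35 were called higher and 3 lower, beside 1725 and 2077 of all 14658 genes. The list's medians were 0.27 with prexasertib alone and -0.19 with 5-Ph-IAA alone. Opposed effects were found for 20, of which 12 were cancelled, beside 8.66% and 4.15% of all genes tested. Among the cancelled was MDM2, the ubiquitin ligase for p53, with 0.19 for prexasertib and -0.42 for 5-Ph-IAA. Its net change was 0.06 (95% interval -0.06 to 0.18).

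CDKN1A (chr6:36676463-36687332), which encodes the CDK inhibitor p21, had 1790, 1730 and 1610 CPM in both-drug libraries, 1600, 1530 and 1390 CPM with prexasertib, 1030, 1050 and 942 CPM with 5-Ph-IAA, and 1160, 1180 and 1030 CPM in DMSO libraries. The both-drug libraries were above every DMSO library and above every prexasertib library. The net log2 fold change was 0.6 ± 0.045 (adjusted p = 1.9e-15), with 0.42 ± 0.046 for prexasertib and -0.16 ± 0.046 for 5-Ph-IAA, so the net change exceeded the sum of the single-drug changes. GDF15, a stress-induced cytokine, was summed higher by class, with 383, 367 and 349 CPM in both-drug libraries and 199, 214 and 185 CPM in DMSO libraries. Its net change was 0.88 ± 0.051, with 0.67 ± 0.052 for prexasertib alone. For 5-Ph-IAA alone the change was 0.02 ± 0.052 (adjusted p = 0.81), and on top of prexasertib it was 0.21 ± 0.051. TP53INP2, an autophagy gene, rose by 1.16 ± 0.074, close to its 1.09 ± 0.074 with 5-Ph-IAA alone. ZMAT3, an RNA-binding protein induced by p53, went against the list at -0.66 ± 0.082, with -0.81 for prexasertib.

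Immediate-early genes, which respond within minutes to growth and stress signals, split between the directions. Of 36 tested, 14 were called higher and 10 lower, with a median net change of 0.11. Over all genes tested 21.2% were called higher and 23.5% lower, so the lower count was near the share over all genes. Without the block 10 of the 36 were called higher and 5 lower, beside 1725 and 2077 of all 14658 genes. EGR1 (chr5:138465479-138469303), a zinc finger transcription factor, had 32.1, 31.3 and 22.9 CPM in both-drug libraries, 47.5, 47.9 and 20.5 CPM with prexasertib, 7.73, 7.14 and 5.39 CPM with 5-Ph-IAA, and 3.62, 3.87 and 0.856 CPM in DMSO libraries. Every both-drug library was above every DMSO library, and the both-drug and prexasertib ranges overlapped. The net log2 fold change was 3.42 ± 0.23 (adjusted p = 4e-12), with 3.79 for prexasertib and 1.3 for 5-Ph-IAA. The both-drug level was thus below what the single-drug changes add up to.

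The nuclear receptor gene NR4A1 had 104, 105 and 89.5 CPM in both-drug libraries, 105, 117 and 98.6 CPM with prexasertib, 61.9, 56.8 and 66.1 CPM with 5-Ph-IAA, and 43.3, 44.4 and 49.7 CPM in DMSO libraries. It too reached about the prexasertib level, at a net change of 1.12 ± 0.078. FOS and FOSB, subunits of AP-1, rose by 1.37 and 1.96, while FOSL2, another AP-1 subunit, was summed lower at -0.86 ± 0.051. FOSL2 had 221, 211 and 219 CPM in both-drug libraries, 272, 280 and 306 CPM with prexasertib, 261, 268 and 271 CPM with 5-Ph-IAA, and 375, 386 and 426 CPM in DMSO libraries. KLF2 and CCN2 followed 5-Ph-IAA to net changes of 0.73 and 0.67 against decreases with prexasertib alone of -0.48 and -0.18.

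Replication-dependent histone genes, whose mature mRNAs carry a stem-loop and no poly(A) tail, were measured in poly(A)-selected libraries. Only 17 of 62 passed the filter, so the others cannot be described. Of the 17, 12 were called higher and 0 lower, and 5 were not called. Over all genes tested 21.2% were called higher and 23.5% lower. A gene could pass the filter on its treated libraries alone. The mean log2 CPM of the tested members was 0.55, 0.6 and 0.7 in DMSO libraries and 1.54, 1.66 and 1.63 in both-drug libraries. The count of 12 and 0 is therefore not free of that selection. H2BC12 had 47, 51.5 and 50 CPM in both-drug libraries, 45.8, 43.2 and 42.9 CPM with prexasertib, 34.8, 29.5 and 36.8 CPM with 5-Ph-IAA, and 24.9, 19.3 and 20.9 CPM in DMSO libraries. The groups were separate, and the net change was 1.19 ± 0.093 (adjusted p = 5e-15). H2BC5 rose by 1.54 ± 0.17, about as much as with prexasertib alone (1.52). Sequences among histone genes are alike, and how shared reads were counted is not given in the sources used here.

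**Figure D4:**
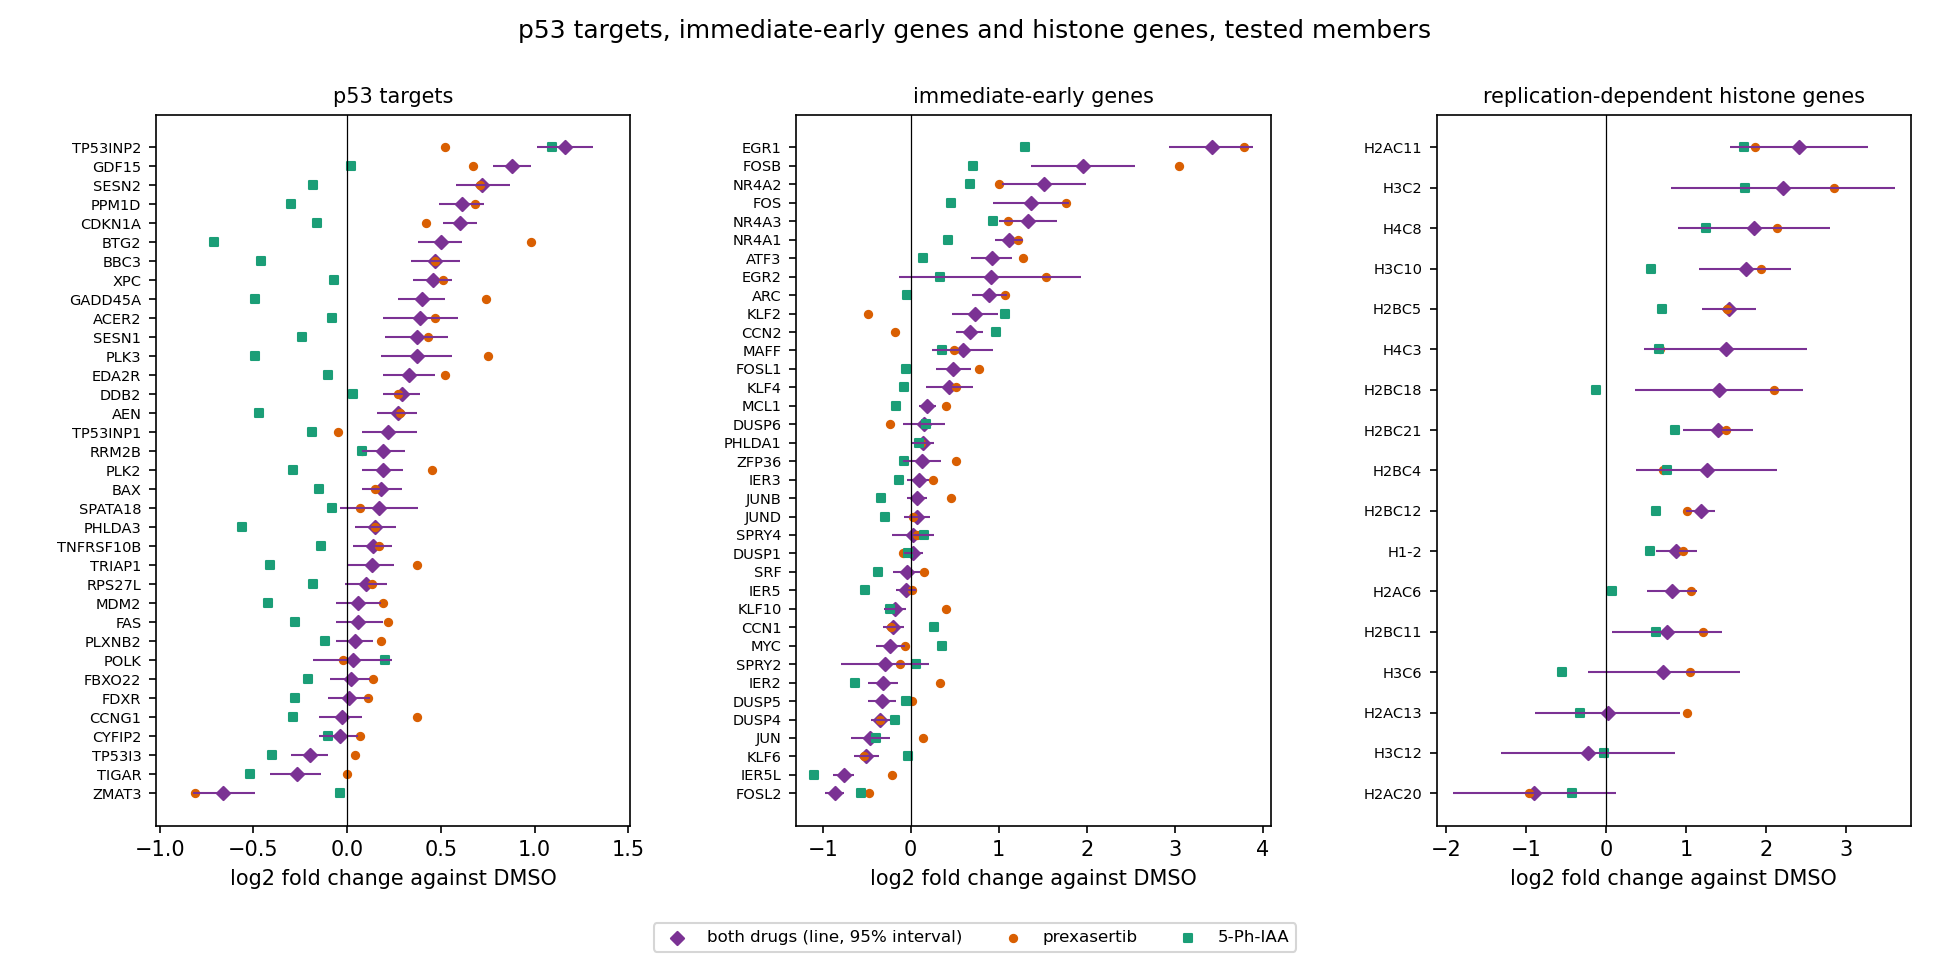
Log2 fold change against DMSO of each tested p53 target, immediate-early gene and replication-dependent histone gene, with diamonds and lines for both drugs and their 95% interval, circles for prexasertib and squares for 5-Ph-IAA. The squares of most p53 targets lie left of 0, with a list median of -0.19, and the circles right of it, with 0.27, whereas EGR1 has all symbols right of 0.

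ATF4 targets and tRNA synthetase genes were lower in 24 of 36 cases and higher in 2, with a median net change of -0.26. Of all genes tested 23.5% were called lower and 21.2% higher. Without the block 16 of the 36 were called lower and 1 higher, beside 2077 and 1725 of all 14658 genes. STC2, a secreted stress-response glycoprotein, was summed lower, with 46.6, 41.6 and 44.7 CPM in both-drug libraries, 69.2, 68.7 and 62.7 CPM with prexasertib, 65.5, 60.2 and 69.1 CPM with 5-Ph-IAA, and 122, 110 and 113 CPM in DMSO libraries. Its groups given 1 drug overlapped each other, both-drug libraries were below them, and the net change was -1.37 ± 0.068 (adjusted p = 1.5e-21). XPOT, the tRNA export factor, was lowered with 5-Ph-IAA, at a net change of -0.87 ± 0.06. SESN2, which is also a p53 target, went the other way at 0.72 ± 0.072.

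NRF2 targets, which A549 cells express highly because their NRF2 inhibitor KEAP1 is mutated, were lower in 17 of 27 cases and higher in 1, with a median net change of -0.23. Of all genes tested 23.5% were called lower and 21.2% higher. Without the block 8 of the 27 were called lower and 0 higher, beside 2077 and 1725 of all 14658 genes. HMOX1, heme oxygenase 1, had 585, 625 and 727 CPM in both-drug libraries, 616, 633 and 728 CPM with prexasertib, 809, 832 and 1150 CPM with 5-Ph-IAA, and 944, 1010 and 1210 CPM in DMSO libraries. The both-drug and prexasertib libraries overlapped, and the net change was -0.71 ± 0.05, against -0.67 for prexasertib alone. TRIM16, a ubiquitin ligase gene, had the same net change of -0.71 ± 0.05. The transporter gene ABCC3 was the member called higher, at 0.21 ± 0.075 (adjusted p = 0.033), and it was not called without the block (adjusted p = 0.51).

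Genes of cholesterol synthesis and uptake had 9 of 25 called higher and 2 lower, beside 21.2% and 23.5% of all genes tested. Their median was 0.06, against 0.01 over all genes. Without the block 3 of the 25 were called higher and 1 lower, and that higher count was near the share over all genes (1725 of 14658). The isomerase gene IDI1 and the sterol carrier gene STARD4 were summed higher at 0.52 ± 0.065 and 0.94 ± 0.12, while SQLE, squalene epoxidase, was lower at -0.33 ± 0.063. STARD4 was not called without the block (adjusted p = 0.065). NF-kB and interferon genes had 11 of 32 tested called lower and 3 higher, with a median of -0.2. Their balance depended on the scaling, since 6 were called lower and 7 higher on library size alone, and without the block 5 were called lower and 3 higher. OAS1, an antiviral sensor, fell by 0.64 and NFKB1 fell by 0.56, both summed, whereas the interferon regulatory factor gene IRF7 rose by 1.15 ± 0.12. Subunits of TRRAP-containing complexes had 9 of 39 called higher and 8 lower, with a median of 0, close to the 21.2% and 23.5% called over all genes tested. Without the block 8 were called higher and 5 lower. Among them the SAGA deubiquitinase gene USP22 was summed lower at -0.61 ± 0.051, and the TIP60 subunit gene DMAP1 was higher at 0.62 ± 0.086. On library size without scaling factors, 17 of these 39 were called higher and 5 lower. Epithelial markers had 1 of 14 called higher and 6 lower, and 0 and 1 without the block. AHR targets had 2 of 8 called higher and 0 lower, near the 21.2% called higher over all genes, and 1 and 0 without the block.

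**Figure D5:**
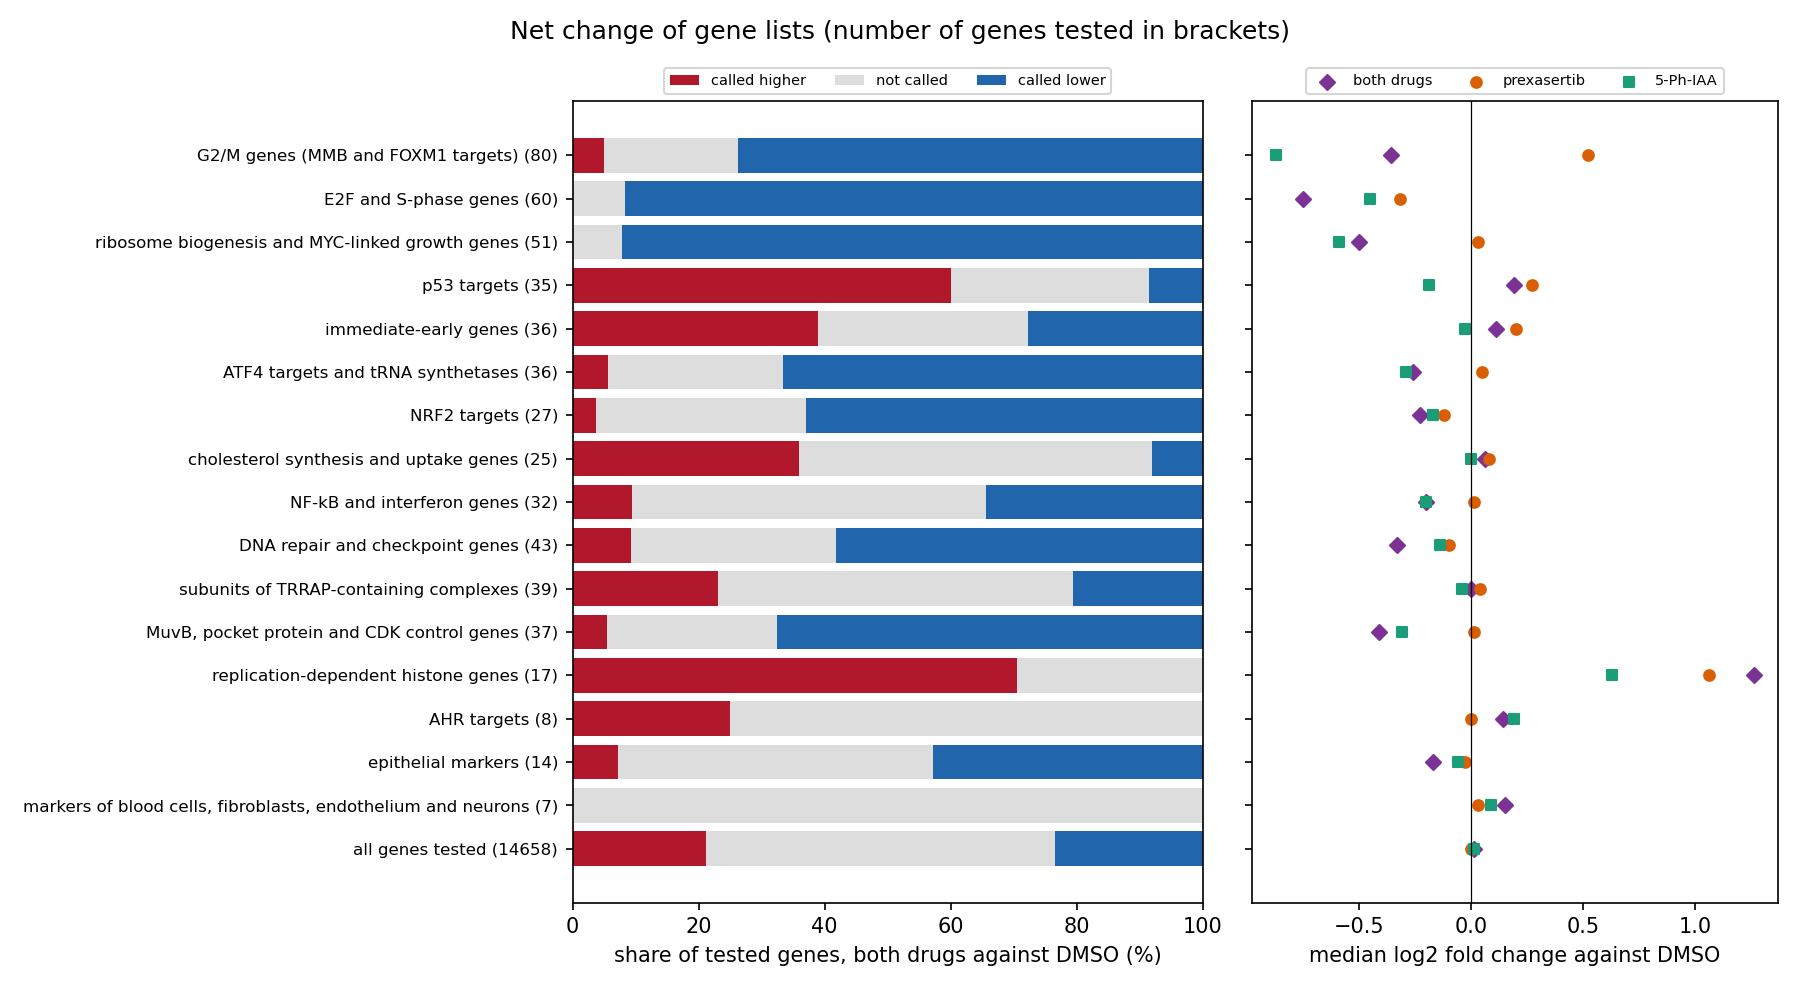
Left, share (%) of each list's tested genes called higher, not called or called lower with both drugs against DMSO, and right, the list's median log2 fold change against DMSO for both drugs (diamonds), prexasertib (circles) and 5-Ph-IAA (squares), with all genes tested in the bottom row. Both-drug medians include -0.75 for E2F and S-phase genes and 0.19 for p53 targets, and that of the histone genes is over the 17 that passed the filter.

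Outside the lists, the largest named increases after EGR1 were those of FBXW10, STON1, PCK1, AOC3 and LOC100128653. FBXW10, an F-box gene (chr17:18744054-18779349), was summed higher, with 35.5, 39.2 and 31.1 CPM in both-drug libraries, 12.9, 13 and 5.4 CPM with prexasertib, 20.4, 21.9 and 15.2 CPM with 5-Ph-IAA, and 4.07, 6.6 and 2.18 CPM in DMSO libraries. The both-drug libraries were above all others, and the net log2 fold change was 3.09 ± 0.19 (adjusted p = 2.6e-13). PCK1, the gluconeogenic enzyme PEPCK, had 13.2, 16 and 7.12 CPM in both-drug libraries, 1.2, 3.27 and 1.83 CPM with prexasertib, 8.62, 8.74 and 6.14 CPM with 5-Ph-IAA, and 3.54, 2.2 and 1.09 CPM in DMSO libraries. It followed 5-Ph-IAA, with -0.15 ± 0.31 for prexasertib and a net change of 2.38 ± 0.25. AOC3, an amine oxidase, and the pseudogene PRKXP1 were summed higher at 2.16 ± 0.23 and 1.87 ± 0.2, and a pseudogene's counts can include reads of its parent gene. STON1 overlaps the read-through gene STON1-GTF2A1L and LOC100128653 overlaps MAFK, so their net changes of 2.39 ± 0.31 and 2.14 ± 0.31 cannot be told apart from changes of those genes.

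Besides E2F8 and RRM2, the largest named decreases were those of TFAP4, ZNF114, BEND3 and SNORD104. TFAP4, a MYC-induced transcription factor, had 5.08, 4.17 and 3.78 CPM in both-drug libraries, 10.3, 12.1 and 10.3 CPM with prexasertib, 5.2, 5.29 and 5.31 CPM with 5-Ph-IAA, and 17.3, 18.9 and 20.1 CPM in DMSO libraries. The both-drug libraries were below all others, and the net change was -2.1 ± 0.16 (adjusted p = 6e-16). BEND3, a repressor of heterochromatin regions, was summed lower at -1.87 ± 0.24 and the zinc finger gene ZNF114 at -1.97 ± 0.24. SNORD104 lies within SNHG25, so its net change of -1.86 ± 0.25 may hold reads of the host gene.

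Genes lowered by prexasertib and raised by 5-Ph-IAA formed the rarer opposed orientation. Among the cancelled ones, APBB1IP, an adaptor of integrin signalling, had 18.9, 18.8 and 21.4 CPM in both-drug libraries, 13, 13.5 and 13.7 CPM with prexasertib, 30.9, 27.1 and 30 CPM with 5-Ph-IAA, and 19.8, 19 and 19.1 CPM in DMSO libraries. The both-drug and DMSO libraries overlapped between the single-drug groups, and the net change was 0.03 ± 0.1. STX3, a membrane fusion syntaxin, and the zinc finger gene ZNF148 had net changes of 0 ± 0.1 and 0.07 ± 0.086, and the ubiquitin-conjugating enzyme gene UBE2W one of 0.02 ± 0.1.

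SEMA4D, a semaphorin, was an opposed gene whose net change followed prexasertib downwards. It had 14.8, 13 and 8.68 CPM in both-drug libraries, 10.9, 9.09 and 5.86 CPM with prexasertib, 56.8, 57.2 and 26 CPM with 5-Ph-IAA, and 25.1, 22.9 and 15 CPM in DMSO libraries. In every group the library numbered 3 was the lowest, the both-drug and DMSO libraries did not overlap, and the net change was -0.79 ± 0.12 (adjusted p = 1.8e-07). The chromatin regulator ARID5B followed prexasertib to -0.39 ± 0.14. ACSBG1, an acyl-CoA synthetase, and the phosphatase gene PHOSPHO1 followed 5-Ph-IAA upwards, to 0.5 ± 0.18 and 0.97 ± 0.26. In the other orientation the glutamate receptor gene GRIN2C followed prexasertib upwards to 0.74 ± 0.14, and UBALD2 to 0.18 ± 0.064. Without the block, SEMA4D (adjusted p = 0.11), ARID5B (0.11), ACSBG1 (0.65), GRIN2C (0.2) and UBALD2 (0.15) were not called.

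The interaction of the drugs, which asks whether the net change differs from the sum of the single-drug changes, was called for 96 genes (0.655%), 55 upwards (0.375%) and 41 downwards (0.28%). The G2/M list held 12 of them, the immediate-early list 7 and the p53 list 6. The count was 0 by the same edgeR test without the block, and 1679 genes had an unadjusted p under 0.05 with the block. DESeq2 with the block called 86. Leaving out single libraries moved the count to between 28, without prexasertib library 1, and 160, without DMSO library 3.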

How the data were processed

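Poly(A) RNA of 12 libraries was sequenced from a directional kit, per the labels' protocols. The authors deposited raw counts per gene, not normalized. Per the submitters' processing notes, hg38, featureCounts 2.0.8 and limma 3.58.1 were used. No source used here gives the aligner, annotation or strand setting, so genes that overlap others are uncertain. Of 28395 gene IDs, 27745 matched the RefSeq gene table (GRCh38.p14), and the other 650 held 0.0324% of counts. Gene lists and named genes were chosen with earlier results of these data known.

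Counts were fitted in edgeR 4.0.16 (R 4.3.3) with TMM scaling (factors 0.925 to 0.978 without 5-Ph-IAA, 1.02 to 1.1 with it), filterByExpr (minimum count 10, total 15; 14658 genes, 99.92% of counts), and a robust quasi-likelihood model of group and replicate number over 12 libraries. F-test p-values were adjusted by Benjamini-Hochberg over all genes tested. The biological coefficient of variation was 5.72%. Values after ± are SE for log2 fold changes. CPM use TMM-adjusted library sizes, except for the markers of other cell types, which use library size alone. Totals cover counting depth only.

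Libraries of the same number deviated together in all 18 pairs (correlations 0.22 to 0.633), and 13 of 18 were highest with their own number. The highest correlations were those of number 3 (0.531 to 0.633). Both-drug library 1 correlated at 0.238 with DMSO library 1 and at 0.341 with another DMSO library, so a match by number was not shown for number 1. The number was kept as a block because of these shared deviations. The labels do not say what it marks or whether libraries came from separate cultures, so p-values measure the spread between these libraries.

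Named genes needed a symbol and a mean log2 CPM of at least 1. They were the 6 largest called net changes in each direction without overlap, the cancelled, summed and opposed genes with the largest smaller effect, for each list with 3 or more called members the 2 lowest adjusted p-values in the direction most members took and 1 in the opposite one, and a set of regulators. A gene that this rule names among the DNA repair genes is not reported here. Other list members are named as examples, chosen after their values were seen. Scripts were tested on simulated data. DESeq2 1.42.0, limma-voom, other scalings, filters, bounds and left-out libraries were alternatives.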

Additional observations from a re-analysis of the deposited data

Results flagged for a closer look

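For 9 of the named genes the net change differed from the sum of the single-drug changes by edgeR's interaction test, that is, prexasertib had another effect with 5-Ph-IAA than without it. The interaction, in log2 units, was 0.43 for PLK1 (adjusted p = 7e-04), 0.42 for CCNB1 (adjusted p = 0.00072), 0.4 for KIF20A (adjusted p = 0.0016) and 0.34 for CDKN1A (adjusted p = 0.0022). Prexasertib raised PLK1 by 0.94 with 5-Ph-IAA and by 0.51 without it, CCNB1 by 1.12 and 0.71, KIF20A by 1.58 and 1.17, and CDKN1A by 0.76 and 0.42. The interaction was -1.67 for EGR1 (adjusted p = 0.0034), -0.52 for NR4A1 (adjusted p = 0.0099), -0.49 for the kinetochore kinesin CENPE (adjusted p = 0.017), -0.53 for MYC (adjusted p = 0.018) and -0.45 for TP53INP2 (adjusted p = 0.021). The prexasertib effect was 2.12 with 5-Ph-IAA and 3.79 without it for EGR1, 0.7 and 1.22 for NR4A1, 0.74 and 1.24 for CENPE, -0.6 and -0.06 for MYC, and 0.07 and 0.52 for TP53INP2. None of the 9 was called without the replicate block, where the count over all genes was 0.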

How the results depend on the processing

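Of 1680 values of the genes named by rule under other settings, 1624 stayed the same, 41 lost the call, 8 gained it, 7 moved and 0 reversed. For genes called in the main fit, staying the same meant the same sign and a call. For genes not called there, it meant no call and a shift within the SD between replicates, whatever the sign. Larger shifts without a call were counted as moved, such as CCNB1 from -0.01 to 0.1 on library size alone. Genes named as further examples were not run singly. Without the replicate block 1725 genes were higher, 2077 lower, 119 cancelled, 350 summed and 0 had an interaction; 1722, 2074, 119 and 349 of the first 4 counts were among the main ones. On library size alone the median net change over all genes moved to 0.115, against 0.011, the higher genes were 65.8% of calls, against 47.5% (4625 higher, 2402 lower), and 226 of the 609 cancelled and 644 of the 1103 summed genes were shared. A bound of 0.2 gave 304 cancelled genes and 0.5 gave 1001, by construction. Single-drug changes against DMSO in place of mean effects gave 211 cancelled and 701 summed genes. The interaction count was 177 without a filter and 251 on libraries numbered 1 and 2. Leaving out single libraries gave 2511 to 3200 higher, 3000 to 3509 lower, 422 to 658 cancelled, 831 to 1039 summed, and 28 to 160 interaction genes: 52, 50 and 160 without DMSO libraries 1, 2 and 3, 28 and 31 without prexasertib libraries 1 and 2, and 30, 31 and 150 without 5-Ph-IAA libraries 1, 2 and 3. All 8 gained calls were those of TRRAP: without the block (adjusted p = 0.016), by DESeq2 (0.015), on library size alone (0.033), with the strict filter (0.046), on the 6 both-drug and DMSO libraries (7.1e-10), on libraries numbered 1 and 2 (5.2e-06), without prexasertib library 3 (0.049) and without both-drug library 2 (0.023, net change 0.66). It was not called without both-drug library 3 (net change 0.34, adjusted p = 0.14). CDC20, UBALD2, ACSBG1, ARID5B, ABCC3 and MYC lost their calls without one or more single libraries. The causes were not tested. Depth limits genes near the filter, such as the histone genes that did not pass it.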
